A study of Caenorhabditis elegans with 2 samples.

Results

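T-box genes of Caenorhabditis elegans were examined as possible binding targets of one of their own family, TBX-11, in chromatin immunoprecipitation sequencing (ChIP-seq) of early embryos. The 9 genes were tbx-2, tbx-7, tbx-8, tbx-9, tbx-11, tbx-37, tbx-38, mab-9 and mls-1, taken by name from 19973 nuclear protein-coding genes of the Ensembl WBcel235 annotation. Each was given a window of its gene body and 5 kb to each side. Both libraries came from whole embryos of strain OP368, described as 1 hour old and collected by egg bleaching. The strain carries the integrated transgene wgIs368, in which tbx-11 on a trimmed fosmid is tagged with TY1, EGFP and 3xFLAG, together with a working unc-119 copy, in an unc-119(tm4063) background. The pull-down used an antibody against GFP, per the sample descriptions, while their antibody field reads tbx-11, and no strain without the transgene was analysed here. The 2 biological replicates form 1 group, so every comparison below is between a T-box gene and other genes, or between replicates, and no hypothesis test was run.

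T-box proteins are transcription factors that bind DNA through a conserved domain and recognise variants of the core GGTGTG. In worms the family is enlarged, and several members act in pairs in the embryo. TBX-2 is needed for anterior pharyngeal muscle, TBX-37 and TBX-38 act redundantly in the ABa descendants that make the anterior pharynx, and TBX-8 and TBX-9 act redundantly in body morphogenesis. MAB-9 acts in the hindgut and tail, and MLS-1 in the fate of uterine muscle.

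The authors deposited ranked lists of candidate peaks, most of them weak, and short thresholded lists. The conservative pooled ranked list, used unless another is named, held 87796 candidates with a median signal of 22.8 and a highest signal of 3100. The other pooled list held 105251, replicate 1 held 55301 and replicate 2 held 45180. Both pooled lists derive from the alignments of both replicates. In each T-box window with a candidate, the strongest had the same summit and signal in both pooled lists. Agreement between the pooled lists is therefore not a separate result. The signal is the peak caller's own strength, on a scale that is not stated, so values are compared within a list, and between lists by rank, with rank 1 the strongest. The score derives from the irreproducible discovery rate, and every thresholded peak had a score of at least 830. The lists hold no read counts, so depth is unknown.

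Of the 9 T-box genes, 1 had a thresholded summit in its window in the conservative pooled list, tbx-7, against 10.7% of all protein-coding genes. That summit lay 4979 bp beyond the 3′ end of tbx-7, close to the edge of the window. It lay in intergenic sequence, 180 bp upstream of cyk-3, which encodes a ubiquitin hydrolase needed in the early embryo, and in the promoter windows of cyk-3 and of npp-10, a nucleoporin gene. The other pooled list also gave 1 T-box gene, against 12.0% of all genes, by the same summit. The lists of replicate 1 and replicate 2 gave 0, against 6.96% and 6.21%. With windows of 2 kb to each side, or the gene body alone, the count was 0. A share of 1 in 9 genes is near the background of each pooled list.

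Candidate summits below the threshold were common, at T-box genes as elsewhere. They lay in 8 of the 9 windows in each of the 4 lists, and tbx-11 was the exception. Over all protein-coding genes the share of windows with a candidate was 91.8% in the conservative pooled list, 92.3% in the other pooled list, 92.5% in replicate 1 and 93.5% in replicate 2. The windows held 113 distinct summits, of which 37 were intergenic, 40 were in introns, 26 in coding exons and 10 in UTRs or non-coding exons of a protein-coding gene. Of the 113, 2 lay within 100 bp of a small RNA gene. No share over all candidates was set beside these counts, so they are a description only. The windows of tbx-8 and tbx-9 overlap, so these genes share summits. For a comparison by length, each gene was set against protein-coding genes whose annotated length was within 20% of its own.

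**Figure D1:**
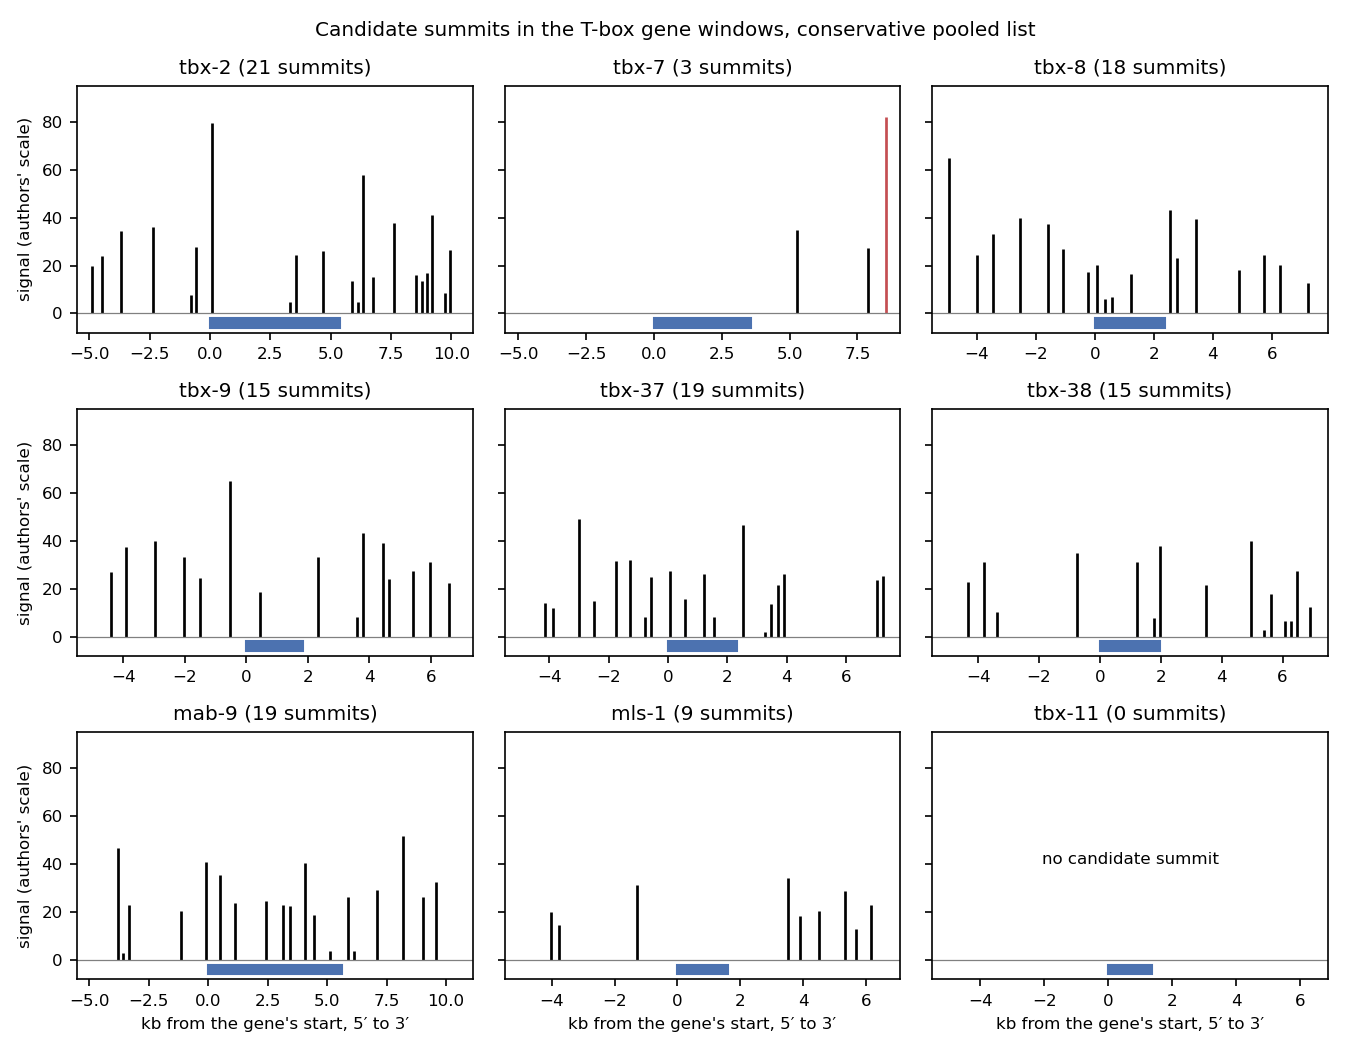
Signal of each candidate summit in the conservative pooled list (vertical lines, authors' scale) by distance in kb from the start of each T-box gene, with the gene body as a blue bar. The thresholded summit, in red, lies beyond the 3′ end of tbx-7, the strongest summit of tbx-2 lies at its start, and tbx-11 has no summit.

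Sequences at 4 of the strongest candidates are shown, so that their letters can be set beside the T-box core GGTGTG. The printed stretches hold no core on either strand. The deposited peak between tbx-9 and tbx-8 does hold 1, at chrIII:10342283-10342288 on the minus strand, outside the printed stretch and within 100 bp of the summit of that candidate in replicate 2. All are from the RefSeq WBcel235 genome, plus strand, 5′ to 3′, with the summit base in capitals where the stretch includes it. At tbx-2 only the part of the candidate upstream of the annotated start is given (chrIII:5136297-5136396). The others are the summit and 100 bp to each side, at chrIII:6019879-6020079 beyond tbx-7, at chrIII:10342300-10342500 between tbx-9 and tbx-8, and at chrIII:11230031-11230231 upstream of tbx-37.
tbx-2: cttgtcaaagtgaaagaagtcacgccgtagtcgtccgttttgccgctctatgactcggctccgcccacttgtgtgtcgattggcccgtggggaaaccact
tbx-7: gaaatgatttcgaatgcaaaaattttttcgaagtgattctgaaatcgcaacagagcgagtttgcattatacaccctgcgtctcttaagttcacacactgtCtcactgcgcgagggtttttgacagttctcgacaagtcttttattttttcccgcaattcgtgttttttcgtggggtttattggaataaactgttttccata
tbx-9: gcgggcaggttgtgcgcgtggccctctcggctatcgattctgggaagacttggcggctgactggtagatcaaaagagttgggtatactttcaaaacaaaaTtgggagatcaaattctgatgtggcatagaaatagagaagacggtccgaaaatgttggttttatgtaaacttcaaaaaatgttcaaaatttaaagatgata
tbx-37: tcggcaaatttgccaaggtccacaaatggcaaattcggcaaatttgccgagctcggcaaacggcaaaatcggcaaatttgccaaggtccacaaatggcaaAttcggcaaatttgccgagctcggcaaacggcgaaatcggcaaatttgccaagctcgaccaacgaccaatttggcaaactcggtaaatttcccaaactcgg

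The tbx-2 gene, whose product is needed for anterior pharyngeal muscle, had its strongest candidate in its own promoter (WBGene00006543, chromosome III, 5130923 to 5136296, minus strand). The summit lay 64 bp downstream of the annotated start, in a UTR or non-coding exon. Its signal was 79.4, rank 892 in the pooled list, and 86.8% of the 1860 genes of similar length had a weaker strongest candidate. Among other genes with a candidate in their own promoter, taken from 1000 bp before to 500 bp after the start, 96.7% had a weaker one.

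The replicates ranked the tbx-2 promoter differently. In replicate 1 the candidate had a signal of 50.3, rank 853 and a score of 268. In replicate 2 it had a signal of 18.5, rank 15996 and a score of 19. These ranks are the top 1.54% of the list of replicate 1 and the top 35.4% of that of replicate 2. As background, 165 pooled candidates in protein-coding windows had a pooled rank within 10% of this one and a counterpart within 200 bp in both replicates. Their median place in replicate 2 was the top 4.15%, and 96.4% of them ranked above the tbx-2 candidate there. The deposited score of the same summit was 225 in the conservative pooled list and 819 in the other pooled list, the latter just under the lowest thresholded score. The tbx-2 promoter thus stood high in the pooled lists and in replicate 1. In replicate 2 it did not, and there 12.3% of genes of similar length had a strongest candidate weaker than that of tbx-2.

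The tbx-2 window held 21 candidate summits, against a median of 15 at genes of similar length, 85.0% of which had fewer. In replicate 1 it held 20 and in replicate 2 it held 13, and 98.5% and 92.4% of those genes had fewer. The number of summits in the window was therefore high in both replicates, unlike the rank of the strongest. Many of the pooled summits lay in the neighbouring genes sax-2 and Y54H5A.2. With windows of 2 kb to each side, 55.5% of genes of similar length had fewer pooled summits, and with the gene body alone 32.4%. The second strongest, with a signal of 57.7 and rank 2808, lay in an intron of sax-2, a gene of neurite growth, 6357 bp downstream of the tbx-2 start. The replicates split on this summit too. Its signal was 49.5 at rank 895 in replicate 1, the top 1.62%, and 9.86 at rank 40582 in replicate 2, the top 89.8%.

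**Figure D2:**
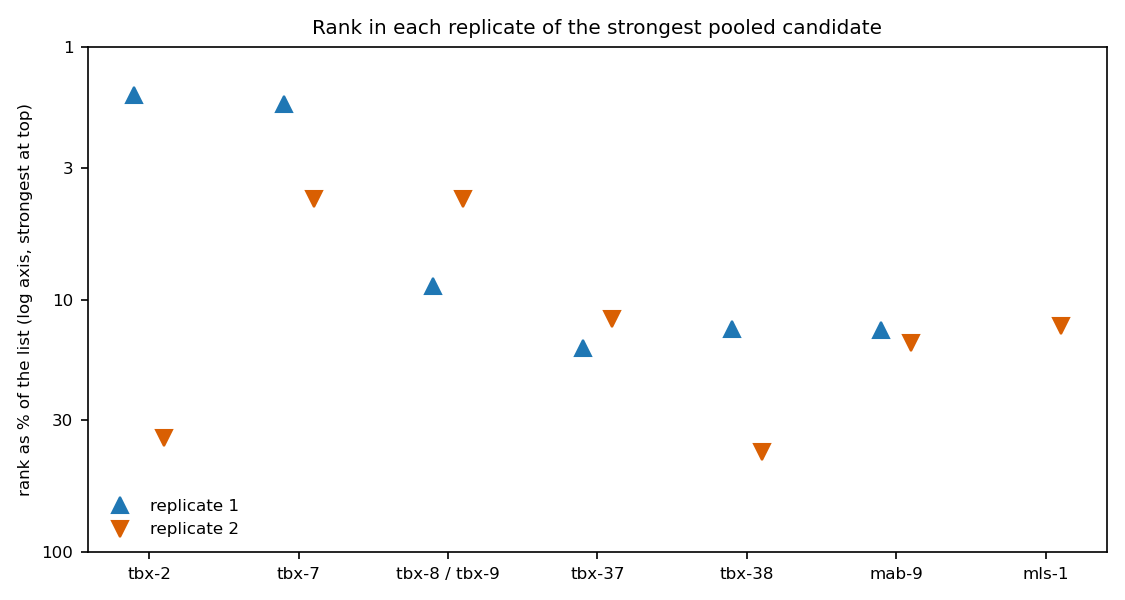
Rank, as a percentage of the list on a log axis with the strongest at the top, of each T-box gene's strongest pooled candidate in replicate 1 (blue) and replicate 2 (orange), matched within 200 bp. The tbx-2 candidate falls from the top 1.54% to the top 35.4%, mab-9 and tbx-37 sit close together, and mls-1 has no counterpart in replicate 1.

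The pair tbx-8 and tbx-9, which act together in body morphogenesis, lies head to head on chromosome III at 10347349 to 10349740 for tbx-8 (WBGene00006545) and 10340006 to 10341858 for tbx-9 (WBGene00006546). Both windows had the same strongest candidate, in the intergenic stretch between the genes, 542 bp upstream of tbx-9 and 4949 bp upstream of tbx-8. Its pooled signal was 64.9 at rank 1700, with scores of 614 and 615 in the pooled lists. It was in both replicates, with a signal of 32.3 and rank 4892 in replicate 1, and a signal of 31.6 and rank 1812 in replicate 2. These are the top 8.85% and the top 4.01% of the lists, so this candidate ranked fairly high in both, while its scores there were 24 and 29. The pooled summit lay close to the edge of the tbx-8 window, which starts at 10342349. In replicate 2 the summit, at 10342344, fell outside that window. Among genes of similar length, 83.1% for tbx-8 and 84.5% for tbx-9 had a weaker strongest candidate. With windows of 2 kb to each side these shares were 61.2% and 91.5%, and with the gene body alone 37.6% and 43.5%.

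Close to the start, the pair differed. The strongest candidate in the tbx-9 promoter was this one, stronger than 94.1% of those in other promoters with a candidate. The strongest in the tbx-8 promoter, 78 bp downstream of its start, had a signal of 20.1 at rank 50533 and was stronger than 17.4%. In replicate 2 a further candidate 1080 bp upstream of tbx-8 was the strongest of the window, with a signal of 32.3 at rank 1663, and it had no counterpart within 200 bp in replicate 1. The tbx-8 window held 18 summits and that of tbx-9 held 15, against a median of 10 for each. In replicate 1 they held 7 and 8, against medians of 6 and 5, and in replicate 2 they held 11 and 10, against a median of 5 for each.

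The pair tbx-37 and tbx-38, which act redundantly in the ABa lineage, lies apart on chromosome III, at 11224808 to 11227125 (WBGene00006556) and 11784082 to 11786061 (WBGene00006557), both on the minus strand. Their windows held many weak candidates. The tbx-37 window held 19, against a median of 10, and 95.7% of genes of similar length had fewer. In single replicates it held 6 each, near the medians of 6 and 5. The tbx-38 window held 15, more than 83.2% of genes of similar length, and 6 and 8 in the replicates.

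The strongest candidate of tbx-37, 3006 bp upstream, had a signal of 49.0 at rank 5626. In replicate 1 its signal was 28.05 at rank 8558, and in replicate 2 it was 24.9 at rank 5395, so the replicates placed it alike. It was stronger than the strongest candidate of 59.0% of genes of similar length. Its sequence, printed above, is repetitive, and 39.8% of the 31-base words that start in it occur more than once in the genome. The strongest candidate of tbx-38 lay 4960 bp downstream of its start, nearest to the start of C24H11.5, with a signal of 39.8 at rank 12498, above 36.3%. In replicate 1 it had a signal of 29.4 at rank 7191, and in replicate 2 a signal of 17.6 at rank 18102. These are the top 13.0% and the top 40.1% of the lists, where pooled candidates of close rank had median places of 30.5% and 38.6%, so replicate 1 placed it high and replicate 2 near the usual place. Repeated words made up 6.86% of the tbx-37 window and 23.7% of the tbx-38 window, against a median of 3.20% over all protein-coding windows, and the part of repeats in these counts was not tested. In the promoters, tbx-37 had a strongest pooled signal of 27.5 and tbx-38 of 34.956, above 37.1% and 59.2% of promoters with a candidate. The tbx-37 promoter held no candidate in replicate 2, and the tbx-38 promoter held none in replicate 1.

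The mab-9 gene, which acts in the hindgut and is related to vertebrate Tbx20, is the only one of the 9 outside chromosome III (WBGene00003106, chromosome II, 516024 to 521635). Its window held 19 candidates, against a median of 15. The strongest, with a signal of 51.8 at rank 4468, lay in an intron of the neighbouring slc-36.2, 8179 bp downstream of the mab-9 start. It was found in both replicates, with a signal of 29.3 at rank 7265 in replicate 1 and of 23.6 at rank 6714 in replicate 2. These are similar places in the lists, and the pooled candidate was stronger than the strongest of 51.2% of genes of similar length. A weaker candidate lay 97 bp upstream of the mab-9 start, with a signal of 40.8 at rank 11456, stronger than 73.0% of those in other promoters with a candidate. In the replicates other promoter candidates led, 485 bp downstream of the start at rank 13030 in replicate 1 and 407 bp downstream at rank 33493 in replicate 2.

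At mls-1, the uterine muscle gene (WBGene00003376, chromosome III, 7460341 to 7461934), the strongest candidate differed between lists in place and in standing. The window held 9 candidates, equal to the median, and the strongest, with a signal of 34.3 at rank 20040, lay 59 bp downstream of the start of the neighbouring H14A12.3. It had a counterpart in replicate 2, with a signal of 24.5 at rank 5758, and none within 200 bp in replicate 1. In the pooled list 26.6% of genes of similar length had a weaker strongest candidate, in replicate 1 it was 75.7% and in replicate 2 it was 61.1%. In replicate 1 the strongest, at rank 3343 with a signal of 35.2, lay 1278 bp upstream of mls-1 and 117 bp upstream of fipr-19. None of the 5 summits in replicate 1 had a counterpart within 200 bp among the 4 in replicate 2. The nearest pair lay just outside that distance, 1278 bp upstream of mls-1 in replicate 1 and 1487 bp upstream in replicate 2. No candidate lay in the mls-1 promoter in any of the 4 lists.

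**Figure D3:**
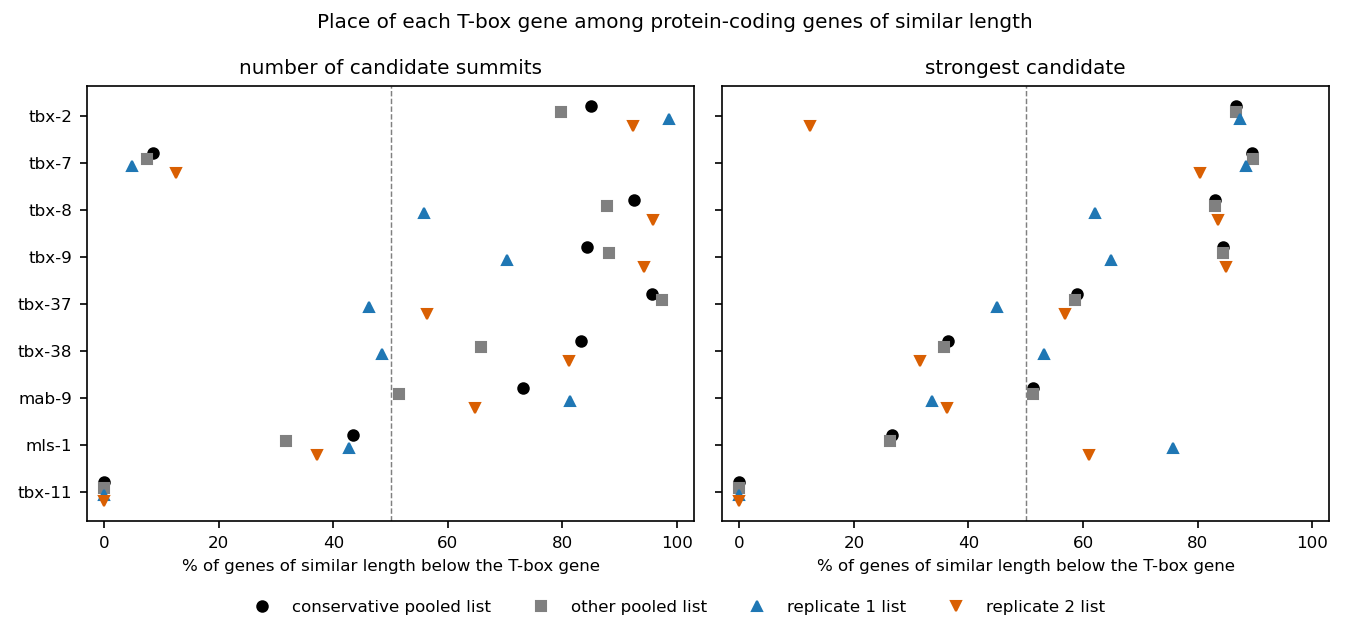
Share of protein-coding genes of similar length that fell below each T-box gene in number of candidate summits (left) and strongest candidate (right), in % on both axes, with 1 mark per list and a dashed line at the median. For the strongest candidate, tbx-2 lies at 87.3% in replicate 1 and 12.3% in replicate 2, tbx-7 lies above 80% in all 4 lists, and tbx-11 lies at 0 throughout. The tbx-7 values for the strongest candidate rest on the cyk-3 promoter summit. With windows of 2 kb to each side the tbx-7 value in the conservative pooled list was 29.0%.

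Taking all 9 genes, 6 had more candidate summits than the median of genes of similar length, where 47.2% of all protein-coding genes did. In the other pooled list 6 did, against 46.8%. In the replicates 4 and 6 did, against 46.2% and 45.1%. For the strongest candidate the count was also 6, against 50.3%, and in the replicates 6 and 5, against 50.1% and 50.2%. In each list tbx-8 and tbx-9 entered this count by a shared summit, and tbx-7 by the cyk-3 promoter summit. The genes in it are therefore not all separate counts. In the promoter 6 of 9 had a candidate in the conservative pooled list, against 67.9% of all genes, and 6 in the other pooled list, against 74.3%. In replicate 1 it was 5, against 51.9%, and in replicate 2 it was 5, against 51.7%. A thresholded promoter summit was present at 0 of 9 in every list, where the shares of all genes were 2.45% and 2.75% in the pooled lists, 1.53% in replicate 1 and 1.21% in replicate 2. At 9 genes these counts are near the background. Those with a promoter candidate in the pooled lists were tbx-2, tbx-8, tbx-9, tbx-37, tbx-38 and mab-9. Of these, tbx-38 lacked one in replicate 1 and tbx-37 lacked one in replicate 2. Median values over the 9 genes were a strongest signal of 51.8, with tbx-11 counted as lowest, against 46.9 over all protein-coding genes, and 15 summits against 11.

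Replicates shared candidates at T-box genes about as often as elsewhere. Of the 64 distinct summits of replicate 1 in the 9 windows, 28 had a summit of replicate 2 within 200 bp (43.8%, Clopper-Pearson 95% interval 31.4 to 56.7, counting error only), against 38.6% over all protein-coding windows. In the reverse direction 27 of 60 did (45.0%, 32.1 to 58.4), against 43.6%. By gene, 8 of the 9 summits of replicate 2 in the mab-9 window were matched in replicate 1, the highest share in that direction. At mls-1 none were matched within 200 bp, with the nearest pair just outside that distance.

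The tbx-11 gene itself, whose product was pulled down, had no candidate in its window in any of the 4 ranked lists (WBGene00006547, chromosome III, 6045615 to 6046981). Of the 3607 genes of similar length, 471 (13.1%) also had none in the pooled list. Of those 3607 genes, 153 (4.24%) had none in any of the 4 lists. Over all protein-coding genes, 571 (2.86%) had none in any of the 4 lists, 42 of them on chromosome III. In the same stretch these were ZK328.6 and ift-139, and tbx-7 (WBGene00006544, 6024958 to 6028532) escaped the count only by 3 summits beyond its 3′ end. Those were the cyk-3 promoter summit, with a pooled signal of 82.1 at rank 815, and 2 weaker ones in cyk-3. The promoter summit had a signal of 48.9 at rank 932 in replicate 1 and of 31.6 at rank 1798 in replicate 2, so it stood high in both. The tbx-7 body, its promoter and the sequence upstream held none in any list.

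The stretch without candidates was long for these lists. It measured 39114 bp in the conservative pooled list and ranked 43 among 87790 gaps between neighbouring summits, whose median was 659 bp and whose longest was 140870 bp. Its rank was 45 in the other pooled list, 22 in replicate 1, where it measured 42372 bp, and 30 in replicate 2, where it measured 36341 bp. It wholly contains tbx-7, ZK328.6, ift-139, tbx-11, F40H6.5 and clc-10. Repeated 31-base words made up 1.80% of it, against 8.73% of the nuclear genome, and 10 of the 50 longest gaps had a lower share. Its GC content was 35.8%, against 35.4% for the genome. At unc-119, the other gene present as an extra copy in the strain, the window held 19 candidates and the gap around its start measured 1808 bp. The extent and copy number of the extra DNA at either gene were not known here, so unc-119 is not a like comparison. Both replicates carry the transgene and share 1 set of control alignments. An absence of binding at tbx-11 and an effect of the extra tbx-11 DNA on the calls there, in the pull-down or the control, therefore cannot be told apart.

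**Figure D4:**
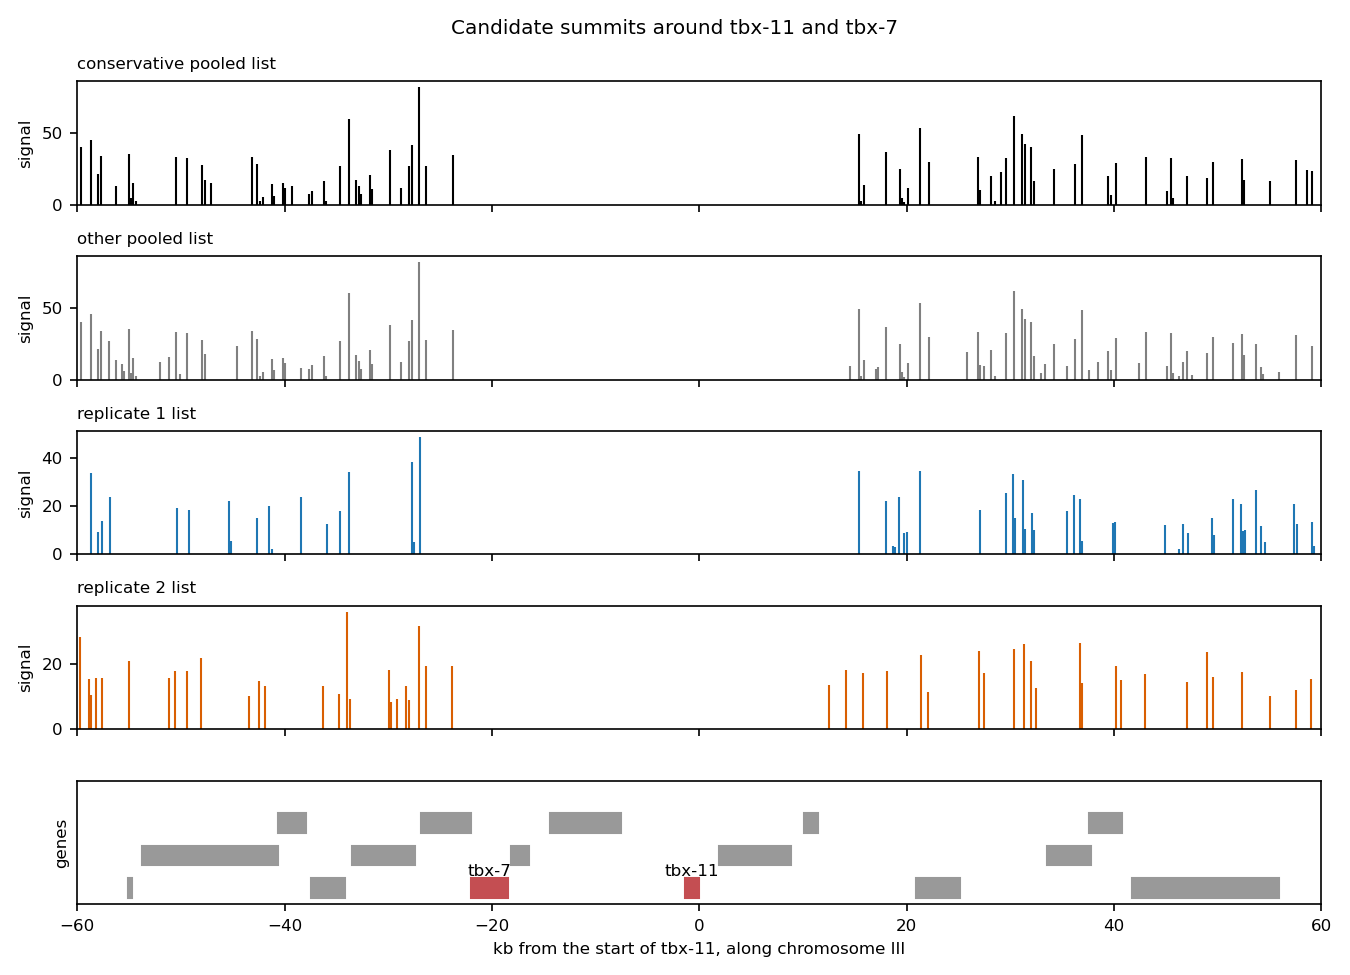
Signal of candidate summits (vertical lines, authors' scale of each list) within 60 kb of the start of tbx-11, in kb along chromosome III, with protein-coding genes as bars in the lowest panel (tbx-7 and tbx-11 in red, vertical position only separates genes). All 4 lists lack a summit over a stretch of 36341 to 42372 bp that holds both T-box genes.

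Sequence matches to the T-box core were frequent in some windows. The pattern GGTGTG, sought on both strands, occurred 9 times in the tbx-2 window and 8 times in the tbx-37 window, and 97.4% and 97.9% of genes of similar length had fewer. The tbx-38 window held 5, those of tbx-7 and mab-9 held 4 each, tbx-8 held 3, tbx-9 and mls-1 held 2 each, and tbx-11 held 1. These are letters in the genome and not measured binding. Within 100 bp of a summit the core was found at 10 of the 113 distinct summits (8.85%, 95% interval 4.33 to 15.7), against 5.63% of all candidates and 9.64% of thresholded peaks. Within 50 bp it was found at 3 (2.65%), against 2.90%. With AGGTGTGA, a longer pattern that contains the core, and 1 mismatch allowed, matches lay at 21 (18.6%, 11.9 to 27.0), against 10.7% of 20000 candidates drawn at random and 9.52% of thresholded peaks. Neighbouring summits can share sequence, so these are not independent counts.

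The strongest candidate with a core in each of 5 windows is shown with its site, as 30 bases read in the direction of GGTGTG, with the core in capitals. None of these candidates was thresholded, and none was the strongest of its window. The site in the tbx-2 window, in an intron of sax-2, is at chrIII:5127141-5127170, plus strand, under a candidate of rank 11114. Those of tbx-37 (chrIII:11228405-11228434, minus strand) and tbx-38 (chrIII:11786885-11786914, minus strand) lie upstream of the genes, under candidates of rank 23691 and 18932. Those of mab-9 (chrII:525069-525098, plus strand) and mls-1 (chrIII:7466548-7466577, minus strand) lie under candidates of rank 35229 and 43430.
tbx-2 window: cggtgcccgcggGGTGTGacagccaggtcg
tbx-37 window: ccaattttttgtGGTGTGcggcgaatatca
tbx-38 window: gtgaggtgtcaaGGTGTGggtggaggtata
mab-9 window: gagtagcgactcGGTGTGacacggagctac
mls-1 window: aacagcatcttgGGTGTGagtacgtccaat

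The 12 further T-box gene entries, among them 2 entries of tbx-30, had no thresholded summit in the window in any list, where 10.7% of all protein-coding genes had one in the conservative pooled list. A candidate was present at 8 of 12, against 91.8% of all genes, and at 9 of 12 in the other pooled list, against 92.3%. The strongest were at tbx-34, with a signal of 58.1 at rank 2697, 961 bp upstream of its start, at tbx-31, with 51.7, and at tbx-32, with 50.9. Those without a candidate in the conservative pooled list were tbx-35, a gene of the MS mesoderm, both tbx-30 entries and tbx-40. The windows of the 2 tbx-30 entries overlap, as do those of tbx-39 and tbx-40, so these are not separate counts. The shares with a candidate are not matched for gene length. Over the 12 entries the median strongest signal was 37.8, with those lacking a candidate counted as lowest, below the 46.9 of all protein-coding genes. Of the 12, 3 lay above the median of genes of similar length, against 50.3% of all genes.

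Of 22 genes that act with or beside these T-box factors in the embryo, 3 had a thresholded summit in the window (med-2, glp-1 and hlh-1), against 10.7% of all genes. The med-2 gene, a GATA factor of mesendoderm, had a strongest signal of 176.6 at rank 255, 3307 bp downstream of its start. The gene glp-1, the Notch receptor that acts in ABa descendants, had 154.6 at rank 316, 12008 bp downstream of its start. Both of those summits lay beyond the 3′ end of the gene and within 100 bp of a tRNA gene. At hlh-1, the worm MyoD gene, the summit lay 2094 bp upstream of the start with a signal of 83.4 at rank 782 and no small RNA gene near it. It was in neither thresholded replicate list. The count was 4 in the other pooled list, which adds pha-4, the FoxA pharynx gene, against 12.0% of all genes. It was 2 in each replicate, against 6.96% in replicate 1 and 6.21% in replicate 2. In the conservative pooled list a candidate was present in 21 of the 22 windows, all but hnd-1, against 91.8% of all genes, and in the other pooled list in 22, against 92.3%.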

How the data were processed

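The deposited lists are on assembly ce11 (WBcel235), per the deposited file descriptions: 2 pooled and 2 replicate lists of ranked candidates, and a thresholded list for each. All were made against the same control alignments. For the aligner, the peak caller and the filters, nothing is given in the sources used here. In each list the deposited signal (column 7) and the deposited score (column 5) were used as the authors gave them. In the pooled ranked lists 16 further columns were not used. Each pooled ranked list was matched to its thresholded list by finding all of its peaks, 882 and 1042, in it.

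A summit is the peak start plus the offset in column 10. Windows, summit counts, strongest signals and percentages of genes of similar length were computed in Python 3.11.15 with numpy 2.4.6, pandas 2.3.3 and scipy 1.17.1, and were checked on simulated summits. A gene without a candidate was ranked lowest. Genes come from the Ensembl WBcel235 annotation and sequence from RefSeq. Named genes were the 9 members, unc-119, the nearest gene starts to their strongest candidates, the 3 strongest of the other T-box genes and of the partner genes, those of them with a thresholded summit, and genes like tbx-11 in the same stretch. Any further gene was named after its values were seen. The members, gene lists and comparisons were chosen with earlier results of these data known. Depth is unknown, and intervals cover counting error only. Alternatives were other lists, windows, comparison genes, patterns and distances. Promoter values, repeated words, the search of whole peaks for the core and the matching of replicate ranks were added after the lists were seen.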

Additional observations from a re-analysis of the deposited data

How the results depend on the processing

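The count of T-box genes with a thresholded summit was 1 with the other pooled list, windows of 10 kb, small RNA genes left out or 1 bp of overlap, and 0 with the gene body alone or windows of 2 kb, where the tbx-7 summit falls outside by construction. Without one replicate it ranged from 0 to 0. The counts against genes of similar length stayed within 4 to 6 of 9 under every alternative run, and 6 to 8 genes had a candidate, the lowest with the gene body alone. The share of summits with a T-box core was 2.65% within 50 bp and 18.6% with the longer pattern, and without one replicate ranged from 9.38% to 10%. The share of replicate 1 summits matched in replicate 2 was 60.9% within 400 bp. The stretch around tbx-11, without one replicate, ranged from 36341 to 42372 bp. Of the values for single genes, 72 of 99 for summit counts and 61 of 99 for strongest candidates left the counting interval of the main value. That of the strongest candidate ranged over settings from 12.3% to 97.3% at tbx-2, from 0% to 94.1% at tbx-7 and from 0% to 75.7% at mls-1, so the order of the genes is not firm. No paired analysis was possible because the design holds 1 group. Unknown depth limits every absent candidate, which may lie below detection.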
